A study of Arabidopsis thaliana with 12 samples.

Results

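ORA47 and MYC3 encode transcription factors of the jasmonate pathway. They are 2 of the 13355 genes that the supplied annotation pairs with a tested probe set of their own. Only such genes count as measured here. Each was read by 1 probe set, the one that the array annotation pairs with its symbol and with no other gene, among 22746 probe sets tested. ORA47 (AT1G74930, chromosome 1) and MYC3 (AT5G46760, chromosome 5) were selected on measured values of these plants: ORA47 on its level over the 4 groups, high in the low plants alone, and MYC3 on its difference between low and air plants. The differences that served this choice are therefore described and not tested.

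RNA came from rosette leaves of 12 Arabidopsis thaliana plants, Columbia ecotype, 7 weeks old, with an array each. Every plant, controls included, carried the transgenes rmpA and rmpB (genotype AB), which encode bacterial enzymes of formaldehyde assimilation. Plants without them were not analysed here, and neither the promoter of the transgenes nor the number of independent lines is given in the sources used here. The 4 groups of 3 plants were outside (no treatment, not in the chamber, under 0.08 ppm formaldehyde), air (chamber, below 0.04 ppm), low (chamber with 1 to 2 ppm) and high (chamber with 14 to 16 ppm). The plants had first stood for 72 h under constant light and 24 °C, and the treatment lasted 150 min. Plants of a chamber condition were exposed together, so chamber run and condition cannot be told apart, and every p-value measures the spread between plants of a group. Whole leaf was used, so fewer cells of a type and less RNA per cell cannot be told apart.

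Jasmonates are lipid hormones made from linolenic acid in chloroplasts and peroxisomes, and leaves make them within minutes of wounding. The active form, jasmonoyl-isoleucine, lets the receptor COI1 mark JAZ repressors for destruction, which frees the bHLH activators MYC2, MYC3 and MYC4. MYC3 shares with MYC2 and MYC4 the control of jasmonate-responsive genes and of glucosinolate synthesis, the mustard-oil defence of the cabbage family. ORA47 is an AP2/ERF factor known in Arabidopsis as an activator of jasmonate synthesis genes.

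All values are log2 intensities made by the authors with GCRMA, which corrects background by probe sequence, and 2.11 is the lowest value in the table. The measured leaf markers were high on all arrays, with RCA, the activator of Rubisco, between 14.74 and 15.07. The single measured root marker, PYK10, stood at 2.11 on all arrays but that of air plant 3, where it read 6.17. The air plants were not alike. On the second principal component (12.2% of the variance) air plants 2 and 3 lay at 49.6 and 69.4 and air plant 1 at -9.0, and the array closest to air plant 1 was low plant 1 (r = 0.995 across probe sets).

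ORA47 was at a high level in every low plant and at a low level in all others. It read 4.95, 4.84 and 5.14 in the outside plants, 4.24, 4.24 and 5.89 in the air plants, 10.33, 11.15 and 11.27 in the low plants and 4.62, 3.82 and 4.48 in the high plants. The low plants did not overlap with any other group, and low plant 1 was the lowest of the 3. The ORA47 mean was 10.92 ± 0.51 (SD, n = 3) in the low plants against 4.98 ± 0.15 in the outside plants, a log2 difference of 5.94 ± 0.46 (SE) or 61.5-fold. Against air, at 4.79 ± 0.95, the difference was 6.13. In the high plants ORA47 was at 4.31 ± 0.43, a difference of -6.61 against the low plants, or a factor of 97.9.

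**Figure D1:**
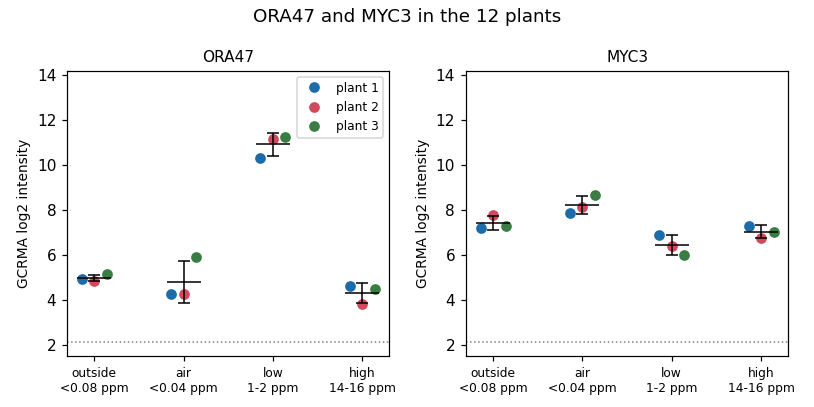
ORA47 and MYC3 by plant. The vertical axis is the GCRMA log2 intensity and the horizontal axis the 4 groups in order of chamber and formaldehyde; points are plants, black lines the group mean ± SD (n = 3), and the dotted line the lowest value in the table. ORA47 lies between 10.33 and 11.27 in the low plants and at 5.89 or below in the other 9, while MYC3 spans 6.00 to 8.65 and is highest in the air plants.

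Among the other 9 plants ORA47 had no clear order. From the bottom, its group means ran high, air, outside and then low. Air overlapped with both high and outside, and its spread came from air plant 3, at 5.89. The high and outside plants did not overlap, but the gap was small: the highest high plant read 4.62 and the lowest outside plant 4.84. The mean difference of high against outside was -0.67 ± 0.46 (SE).

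The lowest low plant exceeded the highest of the other 9 plants by 4.45 on the log2 scale for ORA47, the widest such gap among the 22746 probe sets. This is a description of how the gene was chosen. All 3 low plants were above all 9 others at 400 probe sets (1.76% of those tested), and by at least 1 on the log2 scale at 9.

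The size of the ORA47 difference changed little with the choice of control plants. With air plant 1 as the sole control, low against air was 6.67. Leaving out any plant gave values from 5.85 to 6.67 for low against air and from 5.77 to 6.24 for low against outside. The summed guard cell markers were also highest in the low plants. Of 4 listed, 2 were measured, FMA (a guard cell transcription factor) and AT1G22690, and their summed linear intensity ran from 434 to 858 in the outside, 822 to 2909 in the air, 2950 to 3237 in the low and 850 to 1176 in the high plants. AT1G22690, the brighter gene, made up most of this sum on every array. The list was split: FMA averaged 5.45 ± 0.50 in the low plants against 6.25 ± 0.46 outside (SD, n = 3), and AT1G22690 averaged 11.57 ± 0.07 in the low plants against 9.11 ± 0.63 outside. The 3' minus 5' signals of control transcripts, a measure of RNA quality, also differed. That of the first GAPDH pair was -0.07 ± 0.07 in the low and 0.10 ± 0.04 in the outside plants (SD, n = 3), that of the second 1.98 ± 0.03 in the low and 1.86 ± 0.02 in the outside plants, and that of the first ubiquitin pair -0.30 ± 0.04 in the low and -0.40 ± 0.02 in the outside plants. For these 3 pairs the low and outside plants did not overlap. For the second ubiquitin pair they did, at 0.72 ± 0.12 in the low and 0.63 ± 0.05 in the outside plants. The part of guard cells or of RNA quality in the ORA47 values was not tested.

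MYC3 was measured well above the lowest value in all plants and varied over a narrower range. It read 7.20, 7.77 and 7.29 in the outside plants, 7.85, 8.13 and 8.65 in the air plants, 6.90, 6.40 and 6.00 in the low plants and 7.31, 6.74 and 7.04 in the high plants. The 3 air plants were the highest of the 12, and low plants 2 and 3 were the lowest. From the bottom, the means were 6.43 ± 0.45 in low, 7.03 ± 0.29 in high, 7.42 ± 0.31 in outside and 8.21 ± 0.40 in air (SD, n = 3 each). Low overlapped with high and high with outside, while outside and air were parted by the small step between 7.77 and 7.85.

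High against outside is the comparison of MYC3 whose 2 means hold none of the low and air plants behind its choice, and it did not pass the test. The log2 difference was -0.39 ± 0.29 (SE), with a 95% interval from -1.05 to 0.27 and a limma adjusted p of 0.366. The SE, interval and p pool the spread of all 12 plants, low and air included, and the 6 arrays of the comparison alone gave a limma adjusted p of 0.292. A call here means a Benjamini-Hochberg adjusted p under 0.05 over all probe sets, and 37.5% of all probe sets were called in this comparison. The other MYC3 differences share plants with the choice and are given as values on the log2 scale (SE 0.29 for each). They were -1.78 for low against air, -0.99 for low against outside, -1.18 for high against air, 0.60 for high against low and 0.79 for air against outside. Low against outside, with a factor of 1.98, was thus smaller than low against air, with a factor of 3.43. With air plant 1 as the sole air plant, low against air was -1.42 and air against outside 0.43.

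The RNA quality signals did not move in a single way between high and outside. The 3' minus 5' signal of one GAPDH control pair was 0.23 ± 0.05 in the high and 0.10 ± 0.04 in the outside plants (SD, n = 3), and that of the other was 1.54 ± 0.04 in the high and 1.86 ± 0.02 in the outside plants. For ubiquitin the first pair read -0.48 ± 0.04 in the high and -0.40 ± 0.02 in the outside plants. The second pair read 0.59 ± 0.09 in the high and 0.63 ± 0.05 in the outside plants. Their part in the comparisons with the high plants was not tested.

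The measured relative of ORA47 with a signal above the lowest value, AT1G22810, followed another pattern. Of 10 relatives listed beside ORA47 in the AP2/ERF family, 2 were measured, both known in the annotation by locus only. AT1G22810 stood at 2.11 in all 9 outside, air and low plants and read 6.68, 7.82 and 8.84 in the high plants. Every high plant was thus far above the others, the reverse of ORA47 between high and low plants. The high mean was 7.78 ± 1.08 (SD, n = 3), at least 36.0-fold above the outside plants (limma adjusted p = 9.76e-06), the air plants (1.21e-05) and the low plants (1.34e-05). These p-values pool the high plants with 3 groups that lay at the lowest value without any spread. With the 6 arrays of each comparison alone the limma adjusted p was 0.00213 against outside, 0.00336 against air and 0.00235 against low. These calls held with each plant left out in turn. Across all probe sets, 16.4% were called higher in high than in outside plants, 14.7% higher in high than in air plants and 15.5% higher in high than in low plants. AT1G19210 stood near the lowest value on every array, with 2.38 in low plant 2 as its single reading above 2.11, so no pattern could be read from it.

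**Figure D2:**
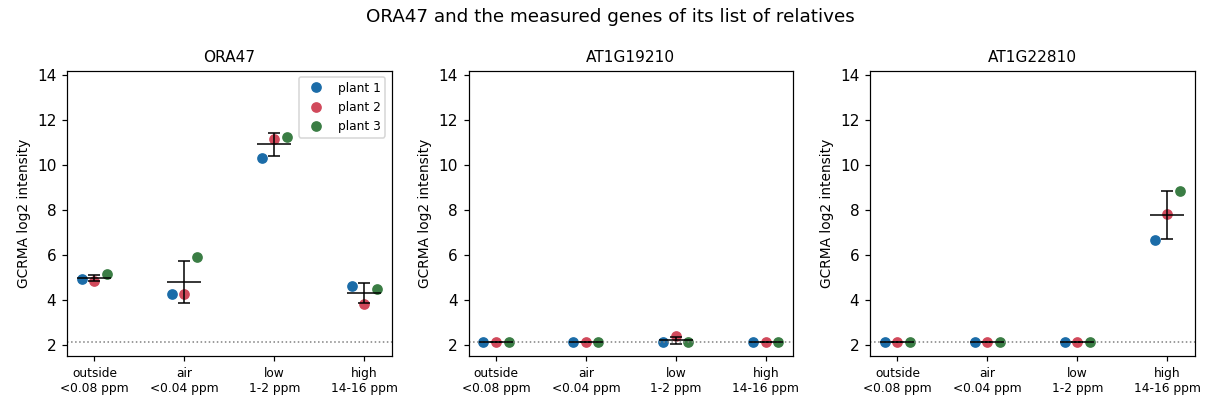
ORA47 and the 2 measured relatives by plant. Axes, points, bars and the dotted line are as in the plot of ORA47 and MYC3. ORA47 is high in the low plants (10.33 to 11.27), AT1G22810 in the high plants (6.68 to 8.84), and AT1G19210 stays at or near 2.11 in all 12.

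STZ, a zinc finger repressor and the single measured member of 24 early wound and stress factors listed, rose in steps where ORA47 did not. Its mean was 3.58 ± 0.76 outside, 6.78 ± 1.11 in air, 10.32 ± 0.21 in low and 12.99 ± 0.21 in high plants (SD, n = 3 each). It was called higher in high against low plants by 2.66 (limma adjusted p = 0.00422), where ORA47 stood at -6.61. Each of its 6 group comparisons was called, though low against air (3.54, limma adjusted p = 0.0249) did not pass without air plant 2, low plant 2 or low plant 3 (up to 0.101). With the 6 arrays of a comparison alone, low against air (limma adjusted p = 0.2) and air against outside (0.147) did not pass.

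The pathway around both factors was read through lists of jasmonate and glucosinolate genes. Apart from ORA47 and MYC3 these named 108 genes, of which 16 had a probe set paired with that gene alone. None of the 16 genes listed for perception and repression, COI1 and the JAZ repressors among them, was so paired. The supplied annotation leaves 8730 of the 22746 tested probe sets without a gene. The array may therefore read listed genes that count as not measured here. In 5 of the 16 measured genes all arrays lay within 0.5 of the lowest value: DGL (a lipase proposed for jasmonate synthesis), JMT (which makes methyl jasmonate), JRG21, AT3G11180 and AT4G00870. For these a low level of RNA cannot be told from none.

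Low against air, where ORA47 differed by 6.13, gave 0 calls among the 16 genes by limma, with 2 at an unadjusted p under 0.05. In the background 1.24% of all probe sets were called. The median difference of the 16 was -0.25, against 0.00 over all probe sets. MYC4, the partner of MYC3, read 8.34, 7.47 and 7.85 in the low plants against 8.50, 9.73 and 9.90 in the air plants. The groups did not overlap, but the nearest plants, low 1 and air 1, were 8.34 and 8.50. The difference of -1.49 ± 0.38 (SE) did not pass (limma adjusted p = 0.0989). UGT74B1, a glucosyltransferase of glucosinolate synthesis, had -1.15 (limma adjusted p = 0.154). Without air plant 1, 3 genes were called lower, MYC4, UGT74B1 and AT2G31790, and with dim probe sets left out 1 was, MYC4. The share of all probe sets called in these fits is not given here, so these counts cannot be read as particular to the listed genes.

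Of 28 synthesis genes listed, 4 were measured, and 1 of them, DGL, lay within 0.5 of the lowest value on all arrays. The others cannot stand for the whole list. OPCL1, the ligase that activates a jasmonate precursor for shortening in the peroxisome, was not called in either comparison of the low plants with controls. It read 9.41, 9.43 and 9.47 in the low plants against 9.03, 9.61 and 10.29 in the air plants. The low plants lay inside the range of the air plants, and the 95% interval of the difference ran from -0.91 to 0.50. In low against outside the interval ran from -0.42 to 0.99. AIM1, a peroxisomal beta-oxidation enzyme, read 10.84, 10.75 and 10.63 in the low plants against 11.43, 11.24 and 11.55 in the outside plants. AT1G70480, in the synthesis list and known by locus only, averaged 8.11 ± 0.08 in the low and 8.31 ± 0.08 in the outside plants (SD, n = 3). In low against outside AT1G70480 had -0.20 (limma adjusted p = 0.249) and OPCL1 had 0.28 (0.752), and neither was called.

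In low against outside, 2 of the 16 genes fell and none rose, where 7.8% of all probe sets were called (4.03% higher, 3.77% lower). AIM1 fell by 0.66 (limma adjusted p = 0.0416). BCAT4, the first enzyme of methionine chain elongation for glucosinolates, fell by 2.20 (limma adjusted p = 0.0454), with 9.96 ± 0.42 in the low plants against 12.17 ± 0.20 outside (SD, n = 3). Both calls were close to the threshold: AIM1 lost its call in 8 and BCAT4 in 10 of the 12 fits that left out a plant, with an adjusted p of up to 0.141 and 0.153. MYC4 had -1.07 (limma adjusted p = 0.141) and UGT74B1 -0.95 (0.172).

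The high plants gave more calls than the low plants against the same controls, among the 16 genes and over all probe sets alike. In high against outside 7 of 16 genes were called, 1 higher and 6 lower, where 37.5% of all probe sets were called (16.4% higher, 21.1% lower). The median difference of all 16 genes, 5 of them near the lowest value on all arrays, was -0.01 on the log2 scale, against 0.00 over all probe sets. MYC4 read 6.74, 6.37 and 6.56 in the high plants against 9.07, 8.50 and 9.29 outside. Every high plant was below every outside plant, and MYC4 fell by 2.40 ± 0.38 (SE; 5.26-fold; limma adjusted p = 9.75e-04), where MYC3 had -0.39. Whether the difference between both genes exceeds their spread was not tested.

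Glucosinolate genes were among those that fell. AT2G31790, in the glucosinolate list and known in the annotation by locus only, read 6.84, 7.19 and 7.42 in the high plants against 10.03, 9.87 and 10.55 outside, and fell by 3.00 (limma adjusted p = 2.69e-04). BCAT4 read 9.58, 9.73 and 9.10 in the high plants against 12.05, 12.05 and 12.40 outside, and fell by 2.70 (limma adjusted p = 0.00395). Neither pair of groups overlapped. UGT74B1 had -0.66 (limma adjusted p = 0.225), so that 2 of 3 measured glucosinolate genes, of 31 listed, fell.

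Among the synthesis genes OPCL1 rose by 1.61 in high against outside plants, to 10.76 ± 0.36 against 9.15 ± 0.32 (SD, n = 3; limma adjusted p = 0.00286), and AIM1 fell by 0.89 (limma adjusted p = 0.00209). AT1G70480, whose place in the synthesis list rests on general knowledge alone, fell by 0.27 (limma adjusted p = 0.0409). The defensin gene PDF1.2, a classic jasmonate and ethylene target, fell by 2.22 (limma adjusted p = 0.0463). The calls of AT1G70480 and PDF1.2 were lost in 8 and 9 of the 12 fits that left out a plant (adjusted p up to 0.14 and 0.142), and the other 5 calls in none. PDF1.2 stood at 7.79 in outside plant 3 and at 5.27 and 5.52 in the other outside plants. The thionin gene THI2.1 lay between 2.11 and 2.13 in all high and outside plants. In the turnover list AT5G05600 had 2.44 (limma adjusted p = 0.0552) and AT2G38240 had 0.96 (0.463), so 0 of 5 were called by limma, with 1 at an unadjusted p under 0.05.

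**Figure D3:**
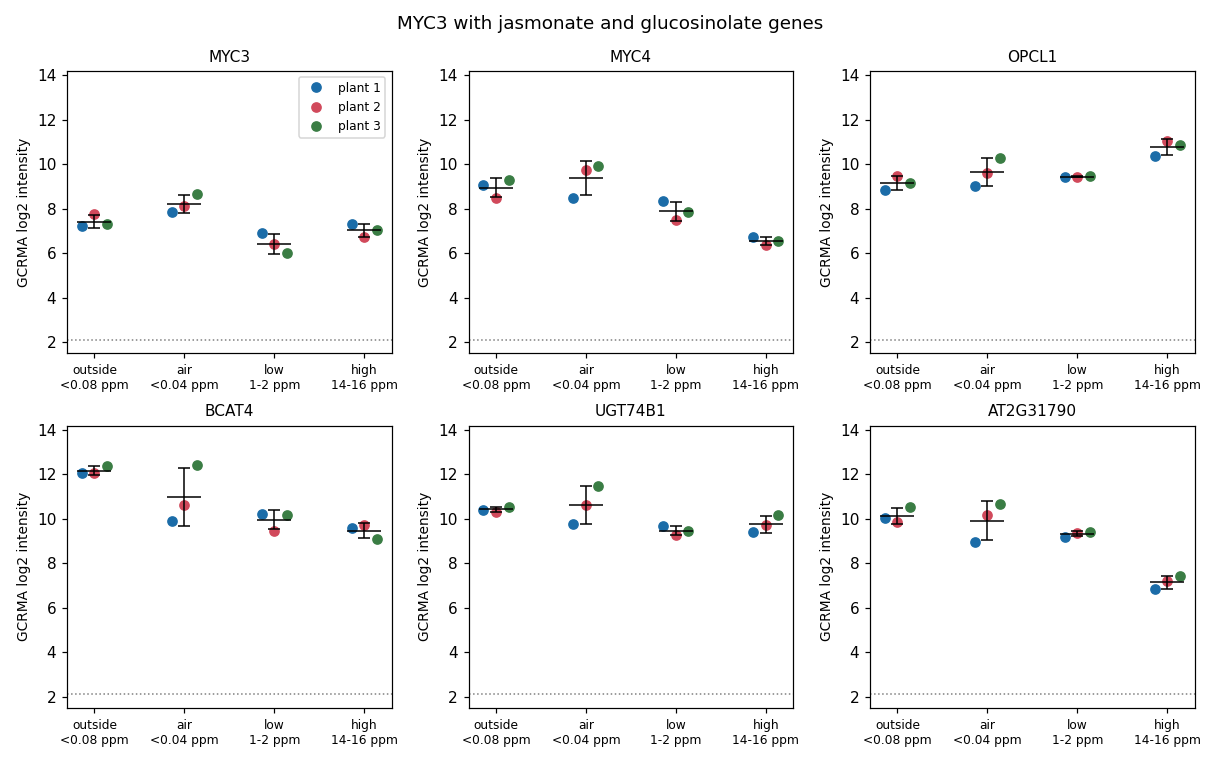
MYC3, MYC4, OPCL1, BCAT4, UGT74B1 and AT2G31790 by plant. Axes, points, bars and the dotted line are as in the plot of ORA47 and MYC3. MYC4, BCAT4 and AT2G31790 are lower and OPCL1 is higher in the high than in the outside plants, while MYC3 overlaps between these groups.

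High against air gave 4 calls of 16, where 34.6% of all probe sets were called (14.7% higher, 19.9% lower). MYC4 fell by 2.82 (limma adjusted p = 4.36e-04) and AT2G31790 by 2.77 (5.15e-04), and both calls held with each plant left out. OPCL1 rose by 1.12 (0.0209), but without air plant 1, air plant 2, high plant 2 or high plant 3 it did not pass (up to 0.0768). AIM1 fell by 0.49 (0.0452), a call lost in 9 of the 12 fits that left out a plant. This comparison shares its high plants with high against outside.

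High against low, in which ORA47 stood at -6.61, gave 3 calls of 16, where 33.8% of all probe sets were called (15.5% higher, 18.3% lower). OPCL1 rose by 1.32 (limma adjusted p = 0.00931), and AT2G31790 fell by 2.18 (0.00219). MYC4 fell by 1.33 (0.0256), but not without low plant 1, low plant 3, high plant 2 or high plant 3 (adjusted p up to 0.0885). MYC3 stood at 0.60 in the same comparison, with overlapping groups.

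The guard cell marker FMA fell by 2.07 in high against outside (limma adjusted p = 3.77e-04), while AT1G22690 had 0.89 (0.173). The summed intensity of the 4 measured leaf photosynthesis markers, of 6 listed, ran from 65150 to 74273 in the high and from 84480 to 88936 in the outside plants. PRK and SBPASE, enzymes of the Calvin cycle, fell by 0.90 and 1.04 (limma adjusted p = 1.55e-05 and 0.00275), while RCA had -0.23 (0.116) and LHCB4.1, a light-harvesting protein gene, -0.07 (0.725). Their part in the changes of the jasmonate genes was not tested.

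Air against outside gave 1 call of 16, AT1G70480, which fell by 0.38 (limma adjusted p = 0.0449), where 5.6% of all probe sets were called (3.1% higher, 2.5% lower). The call was lost in 9 of the 12 fits that left out a plant. Without air plant 1 the calls turned to 2 higher and 0 lower, AT5G05600 and AT2G38240. The share of all probe sets called in that fit is not given here. Within the air group several jasmonate genes were uneven, with air plant 3 on top. AT5G05600 read 4.88, 6.32 and 8.93 in air plants 1, 2 and 3, against 3.88 to 4.59 in the outside plants. AT2G38240 read 3.67, 4.56 and 7.55, against 2.93 to 2.96 outside.

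THI2.1 read 2.11, 3.10 and 7.57 in air plants 1, 2 and 3, against 2.11 to 2.13 outside. UGT74B1, at 11.46, BCAT4, at 12.43, AT2G31790, at 10.66, and MYC4, at 9.90, also had their highest values of all 12 plants in air plant 3. Other plants were close behind: BCAT4 read 12.40 and AT2G31790 10.55 in outside plant 3, and MYC4 read 9.73 in air plant 2. OPCL1, AIM1, AT1G70480 and PDF1.2 had their highest values in other plants. The share of all probe sets with their highest value in air plant 3 is not given here. MYC3 was highest there too, at 8.65, and ORA47 had its highest value outside the low group there, at 5.89. The same plant had the raised PYK10 reading.

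**Figure D4:**
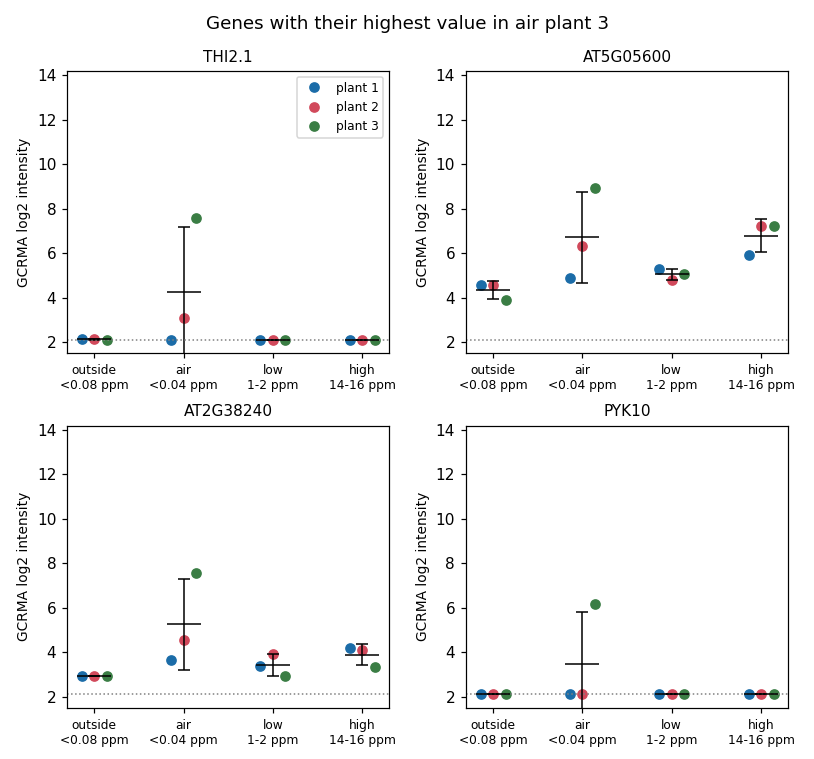
THI2.1, AT5G05600, AT2G38240 and the root marker PYK10 by plant. Axes, points, bars and the dotted line are as in the plot of ORA47 and MYC3. In each panel air plant 3 is the highest of the 12 plants, at 7.57, 8.93, 7.55 and 6.17.

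The genes most like ORA47 were sought by Pearson correlation over the 12 arrays among 5646 other probe sets with 1 gene and a range of at least 1 on the log2 scale. The 6 closest were AT1G52700 (r = 0.933), AT5G51390 (0.900), AT5G06770 (0.886), AT3G19540 (0.886), AT2G39980 (0.883) and AT2G27740 (0.876), each known in the annotation by locus only. In all 6 the 3 low plants lay above the other 9. Their low means exceeded the mean of the other plants by 0.86 to 1.71, against 6.23 for ORA47. AT1G52700, for instance, ran from 3.09 to 3.52 in the low plants against 2.15 to 2.47 in the others, and AT5G51390 from 7.20 to 7.51 against 5.01 to 6.31. The arrays share groups and chamber runs, so these values describe likeness only.

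For MYC3 the 6 closest were AT3G16940 (r = 0.899), the WRKY transcription factor gene ZAP1 (0.886), AT3G15420 (0.881), AT3G26450 (0.878), AT1G08230 (0.876) and AT2G23940 (0.876). ZAP1 read 8.02, 7.31 and 7.19 in the low plants against 8.39, 8.29 and 8.97 in the air plants. AT1G08230 read 5.41, 5.08 and 5.27 in the low plants against 6.27, 7.29 and 8.18 in the air plants. In both the low and air plants did not overlap, as for MYC3.

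The genes next to ORA47 and MYC3 on the chromosome (order from RefSeq, assembly TAIR10.1) shared their patterns in part at most. Within 2 protein-coding genes on either side of ORA47, 3 were measured. AT1G74910 ran from 10.61 to 10.69 in the low plants against 9.45 to 10.45 in the other 9, a small step in the direction of ORA47. All low plants were above all others at 1.76% of tested probe sets. ALDH10A8, an aldehyde dehydrogenase gene, ran from 10.89 to 11.14 in the low plants against 10.48 to 11.80 in the others. AT1G74940 ran from 10.53 to 11.01 in the low plants, from 9.53 to 10.86 in the outside and air plants and from 7.08 to 7.51 in the high plants. It was thus lower in high than in low plants, as was ORA47. Around MYC3, the ubiquitin-specific protease gene UBP21 ran from 5.36 to 6.08 in the low plants against 5.53 to 6.02 in the others, AT5G46770 stood at 2.11 in all plants, and AT5G46780 read 11.24, 10.93 and 10.36 in the high plants against 8.15, 8.00 and 8.26 outside.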

How the data were processed

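The deposited log2 intensities were made by the authors with GCRMA, per the submitters' processing notes, which name no version; array scans were not used here. From 22810 probe sets, 64 array controls were removed and 22746 tested, without any signal filter or further scaling. In the supplied annotation 13513 of these had 1 gene, 503 had more and 8730 had none; 13436 of those with 1 gene were found in the reference gene table (TAIR10.1, used for names and gene order). Array medians ran from 5.68 to 5.82. Depth has no meaning here, and 3 plants per group limit the precision.

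Differences between groups came from limma 3.58.1 (R 4.3.3) fitted to all 12 arrays (8 residual degrees of freedom; eBayes with a trend in mean intensity; two-sided; Benjamini-Hochberg adjustment over 22746 probe sets). The limma step was tested on simulated data. A fold against a group within 0.5 of the lowest value is a lower bound. Tables and plots used Python 3.11.15, pandas 2.3.3 and matplotlib 3.10.9.

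The members and gene lists were chosen with earlier results of these data known. Genes of the jasmonate, glucosinolate and AP2/ERF lists known by locus only, AT1G70480 among them, were placed there from general knowledge. The annotation gives them no role. Named genes were the members, all measured genes of lists with up to 6 measured, and the 6 closest by correlation; neighbouring genes were added after the values were seen. Alternatives were median centring, quantile normalization, a filter on dim probe sets (over 4 in at least 3 arrays), no mean trend, the 6 arrays of a comparison alone, a replicate block and leaving out each array. The fit without air plants 2 and 3 was chosen after seeing the data, and its lone air plant is assumed to vary like the other groups.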

Additional observations from a re-analysis of the deposited data

How the results depend on the processing

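MYC3 in high against outside stayed negative and did not pass under any alternative run, with values from -0.53 to -0.22 when a plant was left out, from -0.39 to -0.34 otherwise, and -0.39 (adjusted p = 0.453) with the replicate block. The untested differences of ORA47 and MYC3 each moved by less than the spread between plants. ORA47 in high against air and in air against outside changed sign in some fits (-0.76 to 0.06 and -0.73 to 0.09). Of the 16 jasmonate and glucosinolate genes, the count in high against outside ran from 5 to 7 with a plant left out, and was 7 with the arrays of the comparison alone (3 higher, 4 lower, AT5G05600 and AT2G38240 being called higher). In high against low it ran from 2 to 4. In high against air the 4 calls ran from 2 (without high plant 2 or high plant 3) to 6 and were 2 with the arrays of the comparison alone. In low against air the 0 calls ran up to 3 (without air plant 1) and were 1 with dim probe sets left out. In low against outside the 2 calls ran from 0 to 3; they were 1 with median centring, quantile normalization or no mean trend and 0 with the replicate block. In air against outside the 1 call, lower, ran from 0 to 2 (2 higher and 0 lower without air plant 1, 0 higher and 2 lower without air plant 3) and was 0 with median centring, with dim probe sets left out and with the arrays of the comparison alone. With air plant 1 as the sole air plant, high against air gave 4 calls, low against air 0 and air against outside 1. The cause of these shifts was not tested. For the alternative fits the share of all probe sets called is not given here. Their counts can therefore not be read as particular to the listed genes. For same-numbered plants the 18 correlations of their deviations from group means ran from -0.273 to 0.231, and 5 were over 0.1. No reference range was drawn for these values, so whether same-numbered plants shared handling was not tested. Outside the replicate block the replicate numbers were used only to name plants. Small changes in genes at the lowest value could not be seen.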
